A study of Solanum lycopersicum with 8 samples.

Results

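Metacaspases are the cysteine proteases of plants, fungi and protists that resemble animal caspases in fold, but cut proteins after arginine or lysine and not after aspartate. In the tomato (Solanum lycopersicum) count table, 8 genes of 28900 gene symbols carried the word metacaspase in their description, as 9 of 45845 transcripts, and each gene was represented by its transcript with the highest total. The leaves had been treated with tunicamycin for 2 h or for 6 h, or were control leaves of the same times, with 2 libraries in each of the 4 groups. Tunicamycin stops the first step of N-glycan assembly, so that glycoproteins fail to fold in the endoplasmic reticulum (ER), and the series asks how leaf transcripts respond to such ER stress. The labels give total RNA from leaf, extracted with trizol and made into directional libraries, and all groups share that preparation. The sources used here name no cultivar, plant age or dose, and do not say whether the control leaves received the solvent.

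Plant metacaspases come in a type I, with an N-terminal domain that often holds a zinc finger of the LSD1 kind, and a type II, without that domain and with a longer linker between the parts of the catalytic domain. Many need calcium for activity. In Arabidopsis, metacaspase 1 promotes the death of cells at sites of pathogen attack, metacaspase 2 counters it, and metacaspase 9 takes part in the clearing of dying xylem cells. In tomato, MCA1 is known as a type II metacaspase whose transcript rises in leaves infected with Botrytis cinerea.

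Totals ran from 44584773 to 122784850 counts in the deeper library of each group and from 4689769 to 21030108 in the shallower, and the deeper library was replicate 1 in both tunicamycin groups and replicate 2 in both control groups. The 8 genes together took 255 to 3290 counts in the tunicamycin libraries and 283 to 6673 in the control libraries. In every library between 71.3% and 81.0% of the counts from 1 to 50 were even numbers, so a count of 2 may come from 1 fragment, which was not tested, and counting intervals would be too narrow. Leaf markers fitted the labelled tissue: all 25 genes for Rubisco small subunits, Rubisco activase and chlorophyll a-b binding proteins were detected, at 2.24% to 4.74% of the counts. The fruit gene PG2 (polygalacturonase-2a) had 0 counts in all libraries, but 21 of the 26 genes matched as fruit markers were detected. Together those 26 took 0.0183% to 0.0268% of the counts. In bulk leaf RNA, fewer cells of a type and less RNA per cell cannot be told apart.

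All 8 symbols were found in the RefSeq gene table. LOC101260875 (metacaspase-3-like), MCA2 (metacaspase 2) and LOC101247964 (metacaspase-1-like) follow one another there with no other protein-coding gene between them. LOC101249016 (metacaspase-1) lies elsewhere on the same chromosome, and the other 4 genes lie on 4 other chromosomes. Positions are not printed, since no source used here names the genome build behind the counts. A long non-coding RNA, LOC109119316, overlaps LOC101247964 in that table but had 65 counts in all, against 531 for LOC101247964.

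LOC101247995, described as metacaspase-1-like, was the 1 metacaspase gene called lower with tunicamycin (adjusted p under 0.05 in edgeR) when both times were averaged. Other members also had averaged values below zero, but none of them was called. The averaged log2 fold changes of all 6 genes that passed the low-count filter in both arms were below zero, as in 46.5% of all transcripts, and that of MCA2 was lower still (-2.13). LOC101247995 stood at 7.62 and 8.68 CPM (a gene's count relative to the library's total after TMM scaling) in the tunicamycin libraries of 2 h, against 19.1 and 29.4 CPM in the control libraries. At 6 h it stood at 5.26 and 7.51 CPM with tunicamycin, against 18.0 and 17.03 CPM in control leaves. The 4 tunicamycin libraries thus lay below the 4 control libraries, with no overlap at either time. These values rest on 54 to 537 counts in the tunicamycin libraries and on 94 to 2156 counts in the control libraries.

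Averaged over both times, the log2 fold change of LOC101247995, tunicamycin over control, was -1.53 ± 0.25 (SE), a level 0.346 times that of control leaves. This was the 1 metacaspase gene of the 7 tested that was called in that comparison, at adjusted p = 0.00679 in edgeR's quasi-likelihood test, while 1.16% of the 34483 transcripts were called. At an unadjusted p under 0.05 there were 3 of the 6 genes that passed the low-count filter in both arms, against 7.91% of all transcripts. At the single times the change was -1.60 ± 0.36 at 2 h (adjusted p = 0.175 in edgeR) and -1.47 ± 0.35 at 6 h (adjusted p = 0.128), neither of them called. Between the deeper libraries alone the averaged difference was -1.81, and between the shallower -1.20. The call ended when control 2 h replicate 2 was left out (log2 -1.37, adjusted p = 0.0958 in edgeR), and likewise for tunicamycin 2 h replicate 1 (-1.49, adjusted p = 0.0663 in edgeR), the deeper library of each of those groups. It held in the other 14 of 16 alternatives.

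**Figure D1:**
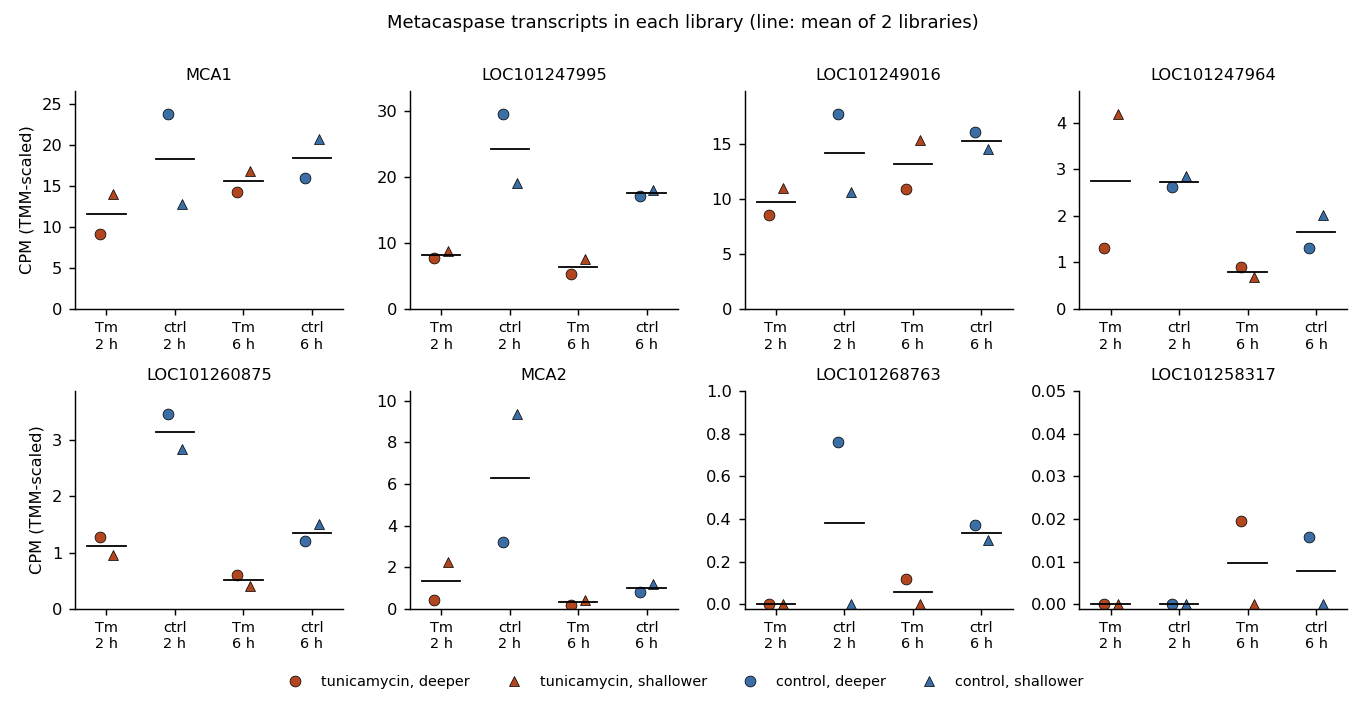
CPM (TMM-scaled, linear axis) of the 8 metacaspase genes in the 8 libraries, with tunicamycin (Tm) and control (ctrl) groups at 2 h and 6 h; circles are the deeper and triangles the shallower library of a group, and lines are means of 2 libraries. For LOC101247995 the tunicamycin libraries sit between 5.26 and 8.68 CPM and the control libraries between 17.03 and 29.4 CPM, while for MCA1 the groups overlap.

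By group, LOC101247995 averaged 8.15 ± 0.748 CPM in tunicamycin leaves and 24.3 ± 7.28 CPM in control leaves at 2 h (SD, n = 2 each). The averages of 6 h were 6.38 ± 1.59 CPM with tunicamycin and 17.5 ± 0.692 CPM in control leaves (SD, n = 2 each). Control leaves of 2 h were thus the highest group, followed by control leaves of 6 h, tunicamycin leaves of 2 h and tunicamycin leaves of 6 h. Neighbours of the same arm in this order were not called apart. For 6 h over 2 h the log2 fold change was -0.36 ± 0.35 in tunicamycin leaves (adjusted p = 0.805 in edgeR) and -0.48 ± 0.34 in control leaves (adjusted p = 1.00). The tunicamycin effect at 6 h minus that at 2 h was 0.13 ± 0.49 on the log2 scale (adjusted p = 1.00 in edgeR).

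The authors' deposited table for 2 h lists LOC101247995 at log2 -1.59 with a false discovery rate of 0.00358, and MCA2 at -2.49 with 0.0275. These were the 2 metacaspase genes under 0.05 in that table, where 1.78% of the 45845 transcripts were. In the authors' deposited table for 6 h, LOC101247995 stands at -1.48 with a false discovery rate of 0.189, and no metacaspase gene is under 0.05, against 0.27% of its transcripts. The test behind the authors' deposited tables is not named.

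MCA1 and LOC101249016, the other metacaspases of comparable CPM, were called in no comparison. MCA1 stood at 9.18 and 14.0 CPM in tunicamycin leaves at 2 h, against 12.8 and 23.7 CPM in control leaves. In the 6 h leaves MCA1 stood at 14.2 and 16.9 CPM with tunicamycin, against 20.7 and 16.0 CPM in control leaves. The groups overlapped at both times, and the averaged log2 fold change was -0.47 ± 0.26 (adjusted p = 0.77 in edgeR). The deeper libraries alone gave -0.77 and the shallower alone -0.09.

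LOC101249016, described as metacaspase-1, gave 8.55 and 10.9 CPM in tunicamycin leaves at 2 h, against 10.6 and 17.6 CPM in control leaves. By 6 h it gave 10.9 and 15.3 CPM with tunicamycin, against 14.5 and 16.0 CPM in control leaves. Its groups overlapped at both times too. The averaged log2 fold change was -0.40 ± 0.26 (adjusted p = 0.85 in edgeR), and between the shallower libraries it was 0.06.

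Within a library, counts of LOC101247995 can be set against those of MCA1 without any scaling between libraries. There were 0.83 and 0.621 counts of LOC101247995 for each count of MCA1 in tunicamycin leaves at 2 h, against 1.49 and 1.24 in control leaves. At 6 h the ratios were 0.37 and 0.445 with tunicamycin, against 0.869 and 1.07 in control leaves. At each time both tunicamycin ratios lay below both control ratios. The difference between the genes was not tested, and LOC101247995 was set against MCA1 with its fall already known. For LOC101249016 over MCA1 the ratios lay between 0.767 and 0.931 in tunicamycin libraries and between 0.699 and 1.00 in control libraries, with full overlap. For MCA2 over MCA1 they overlapped at 2 h, at 0.0431 and 0.161 with tunicamycin, against 0.730 and 0.135 in control leaves. At 6 h the MCA2 ratios did not overlap, at 0.0138 and 0.0243 with tunicamycin, against 0.0583 and 0.0494.

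LOC101247995 made up 26.9% and 21.2% of the family's counts in tunicamycin leaves at 2 h, against 33.2% and 36.4% in control leaves. At 6 h its share was 16.3% and 18.2% with tunicamycin, against 30.9% and 32.3% in control leaves. The summed level of the 8 genes was 28.3 and 41.0 CPM in tunicamycin leaves at 2 h, against 57.6 and 80.8 CPM in control leaves, and 32.2 and 41.2 CPM at 6 h, against 58.3 and 52.7 CPM. Transcript lengths were not used here, so these are shares of counts and not of molecules.

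**Figure D2:**
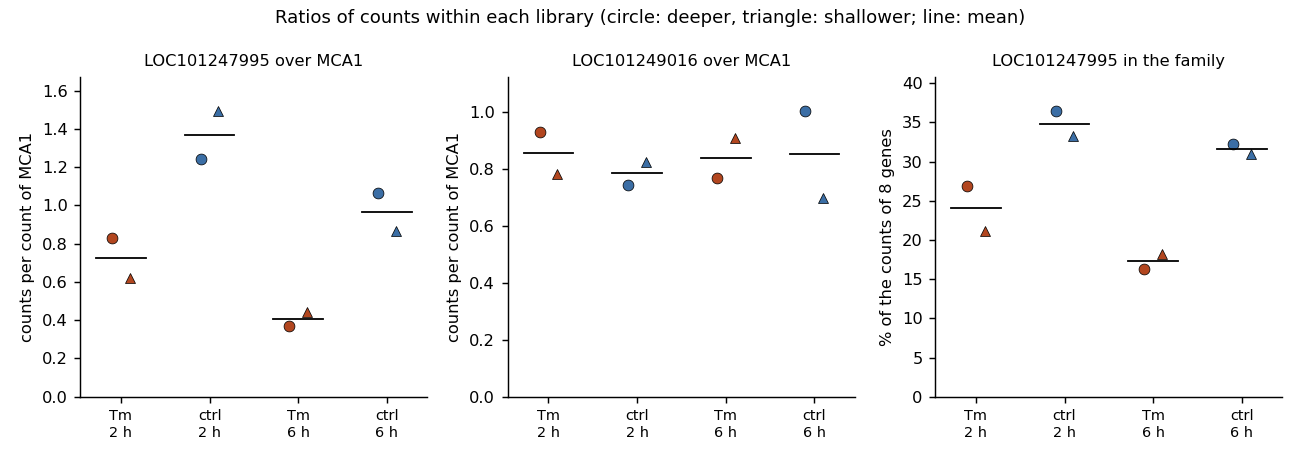
Ratios of counts within each library, for tunicamycin (Tm) and control (ctrl) groups at 2 h and 6 h: LOC101247995 over MCA1, LOC101249016 over MCA1, and LOC101247995 as a percentage of the counts of the 8 genes. Circles are deeper and triangles shallower libraries, lines are means of 2; at each time the first ratio is lower in both tunicamycin than in both control libraries (at 6 h at most 0.445 against at least 0.869), while the ratio of LOC101249016 overlaps between the groups.

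The neighbouring genes LOC101260875 and MCA2 had few counts, and both had lower values in the tunicamycin than in the control libraries of the same time, without being called. LOC101260875 stood at 1.27 and 0.965 CPM in tunicamycin leaves at 2 h, against 2.85 and 3.46 CPM in control leaves. The levels of 6 h were 0.597 and 0.41 CPM with tunicamycin, against 1.51 and 1.20 CPM in control leaves. The groups did not overlap at either time, but the shallower tunicamycin libraries held only 6 counts each. The averaged log2 fold change was -1.42 ± 0.49 (adjusted p = 0.333 in edgeR), or -1.18 from the deeper libraries alone and -1.65 from the shallower.

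MCA2 stood at 0.396 and 2.25 CPM in tunicamycin leaves at 2 h, against 9.36 and 3.21 CPM in control leaves. Leaves of 6 h gave 0.196 and 0.41 CPM with tunicamycin, against 1.21 and 0.79 CPM in control leaves. The groups did not overlap, on 6 to 20 counts in each tunicamycin library and 24 to 152 in each control library. The averaged log2 fold change was -2.13 ± 0.64, not called by edgeR (adjusted p = 0.201) and called by DESeq2 (adjusted p = 0.0236) and in edgeR with no low-count filter (0.0143). At 2 h it was -2.42 ± 0.90 and at 6 h -1.84 ± 0.92 (adjusted p = 0.564 and 1 in edgeR). These values rest on single libraries: with 1 left out, the value at 2 h lay between -3.93 (without tunicamycin 2 h replicate 2) and -1.45 (without control 2 h replicate 1 or tunicamycin 2 h replicate 1), that at 6 h between -2.31 and -1.25, and the averaged one between -2.89 and -1.64.

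MCA2 was also lower at 6 h than at 2 h in control leaves, by its values. The log2 fold change was -2.63 ± 0.86, with no overlap of the control libraries (0.79 to 1.21 CPM at 6 h, against 3.21 to 9.36 CPM at 2 h), and it was not called (adjusted p = 0.649 in edgeR). In tunicamycin leaves the log2 fold change, 6 h over 2 h, was -2.06 ± 0.97 (adjusted p = 0.481 in edgeR), and there the libraries overlapped. Over all alternatives the value in tunicamycin leaves ran from -3.07 to -0.55, and that in control leaves from -3.29 to -1.71.

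LOC101247964, the third gene of this cluster, had overlapping groups at 2 h. It stood at 1.32 and 4.18 CPM in tunicamycin leaves at 2 h, against 2.85 and 2.62 CPM in control leaves, so that the control libraries lay between the tunicamycin libraries. In leaves of 6 h it stood at 0.901 and 0.683 CPM with tunicamycin, against 2.01 and 1.30 CPM in control leaves, with no overlap. The log2 fold change was -0.06 ± 0.71 at 2 h and -1.02 ± 0.70 at 6 h (adjusted p = 0.997 and 1 in edgeR). The difference between these effects, -0.96 ± 1.00, was not called either (adjusted p = 1.00 in edgeR). For 6 h over 2 h in tunicamycin leaves the log2 fold change was -1.69 ± 0.73, with no overlap of the libraries (adjusted p = 0.415 in edgeR). The deeper libraries alone gave -0.53 and the shallower -2.54, and the value became -0.95 in limma-voom. Leaving out tunicamycin 2 h replicate 2 gave -0.71, and leaving out replicate 1 of that group gave -2.38. Its second transcript variant had 8 to 147 counts where the first had 10 to 165, and reads common to both may stand under each.

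LOC101268763, another metacaspase-1-like gene, was at the edge of detection. It had 0 counts in both tunicamycin libraries of 2 h, against 0 and 36 counts in the control libraries. The leaves of 6 h had 12 and 0 counts with tunicamycin, against 6 and 47 counts in control leaves. With 3 counts over both tunicamycin libraries put in place of 0, the pooled level at 2 h would be 11.9-fold lower than in control leaves. That value is no bound, since most low counts were even numbers and replicates differed beyond sampling noise. It rests on the 36 counts of control 2 h replicate 2 alone, and control 2 h replicate 1 also had 0 counts. At 6 h the fitted log2 fold change was -2.04 ± 1.48 (adjusted p = 1 in edgeR), and the gene was called in no comparison.

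LOC101258317, described as metacaspase-9, did not pass the low-count filter. It had 2 counts in tunicamycin 6 h replicate 1 and 2 counts in control 6 h replicate 2, and 0 counts in the other 6 libraries. No difference was detectable at this depth, where 3 counts correspond to 0.0237 CPM in the deepest library and 0.61 CPM in the shallowest. The other 7 genes passed. LOC101268763 passed through its control libraries alone, since only control libraries reached the filter's cutoff, so that its direction with tunicamycin was fixed by the filter and it is kept out of the counts over the family that follow. The remaining 6 genes reached the cutoff in at least 2 tunicamycin and at least 2 control libraries.

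**Figure D3:**
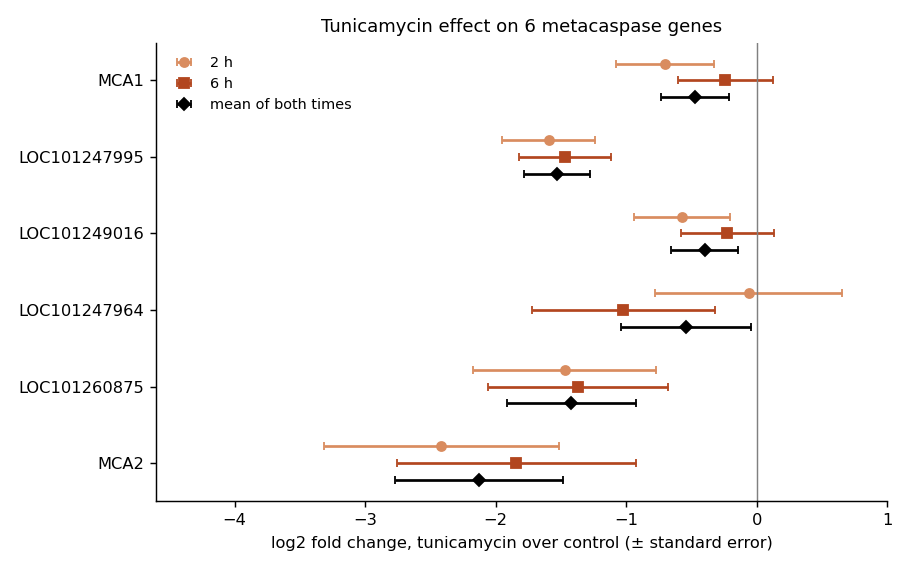
Log2 fold change of 6 metacaspase genes, tunicamycin over control, at 2 h, at 6 h and averaged over both times; bars are standard errors from edgeR. LOC101268763 is left out because it had 0 counts in both tunicamycin libraries of 2 h, and LOC101258317 because it did not pass the low-count filter. LOC101247995 has the narrowest bars away from zero (averaged -1.53 ± 0.25), and MCA2 lies farther out with wider ones (-2.13 ± 0.64).

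At 2 h none of the 7 tested metacaspase genes was called by edgeR, against 0.0464% of all transcripts. Of the 6 that passed the filter in both arms, 2 had an unadjusted p under 0.05, against 7.25%. DESeq2 called 1, LOC101247995, and limma-voom 0. The log2 fold changes of these 6 were below zero, with a median of -1.09, where 47.7% of all transcripts were below zero and their median was 0.03. Between the shallower libraries alone MCA1 (0.13), LOC101249016 (0.05) and LOC101247964 (0.55) were above zero and the others below. In 3 genes both tunicamycin libraries lay below both control libraries, as in 18.8% of all transcripts.

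At 6 h none of the 7 was called by edgeR, against 0.322% of all transcripts, and 1 of the 6 had an unadjusted p under 0.05, against 4.07%. DESeq2 again called LOC101247995 and limma-voom 0. The 6 were below zero, with a median of -1.19 against 0.03 over all transcripts, of which 47.1% were below zero. Between the shallower libraries alone LOC101249016 was above zero (0.08) and the others below. In 4 of the 6 the tunicamycin libraries lay below the control libraries, as in 12.5% of all transcripts. At both times together this held for 3 genes, LOC101247995, LOC101260875 and MCA2, and for 4.56% of all transcripts. The comparisons at the 2 times share no library, but the members were not chosen without knowledge of them, and these counts are given as a description.

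With harvest time no metacaspase gene was called. In tunicamycin leaves, 6 h against 2 h, 0 of 7 passed in edgeR, DESeq2 and limma-voom, with 1 at an unadjusted p under 0.05. Of all transcripts 0.603% were called by edgeR and 10.6% had an unadjusted p under 0.05. Of the 6 genes 4 were below zero and 2 above, and MCA1 was the gene whose 6 h libraries both lay above the 2 h libraries (14.2 and 16.9 against 9.18 and 14.0 CPM, log2 0.44 ± 0.37, adjusted p = 0.753 in edgeR), as in 22.3% of all transcripts. In 3 genes, LOC101247995, LOC101247964 and LOC101260875, both 6 h libraries lay below both 2 h libraries, as in 19.3%. In control leaves 0 of 7 passed in edgeR, DESeq2 and limma-voom, with 1 at an unadjusted p under 0.05. Of all transcripts 0.27% were called by edgeR and 5.03% had an unadjusted p under 0.05. There 5 of the 6 genes were below zero, and in 4 of them, LOC101247995 and the 3 neighbouring genes, both 6 h libraries lay below both 2 h libraries, as in 16.1% of all transcripts. The tunicamycin effect was not called as different between the times for any member, nor for any transcript in edgeR (0%), DESeq2 or limma-voom, with 0 members and 2.21% of all transcripts at an unadjusted p under 0.05.

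Across the 8 libraries, Pearson's r of log2 CPM was 0.907 between MCA1 and LOC101249016. Among LOC101247995 and the 3 neighbouring genes it lay between 0.53 (LOC101247995 with LOC101247964) and 0.854 (LOC101247995 with LOC101260875), with 0.829 for MCA2 and LOC101247964, 0.791 for MCA2 and LOC101260875 and 0.74 for MCA2 and LOC101247995. Between MCA1 or LOC101249016 and those 4 genes it lay between -0.09 (LOC101249016 with LOC101247964) and 0.589 (MCA1 with LOC101247995). No difference between these correlations was tested. These values describe 8 libraries that share groups and depth, and at the counts of the low genes a weak correlation carries no weight.

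Among 12408 other genes with a description and a mean log2 CPM of at least 1, the 5 with the profile most like LOC101247995 over the 8 libraries were SLJAZ3 (r = 0.996), LOC101249076 (0.987), LOC101247438 (0.985), loxD (0.983) and LOC101253022 (0.983). SLJAZ3 encodes a JAZ repressor of jasmonate signalling and loxD a lipoxygenase that feeds jasmonate synthesis. LOC101249076 is described as beta-1,3-galactosyltransferase GALT1, LOC101247438 as the glucuronosyltransferase PGSIP8, and LOC101253022 as polyamine oxidase 1, which breaks down polyamines.

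SLJAZ3 stood at 36.3 and 43.1 CPM in tunicamycin leaves at 2 h, against 145 and 299 CPM in control leaves, and at 20.3 and 28.8 CPM at 6 h, against 133 and 106 CPM. LOC101249076 averaged 6.77 CPM with tunicamycin at 2 h, against 19.2 CPM in control leaves, and 5.57 CPM at 6 h, against 15.9 CPM. Each of the 5 genes was higher in the 4 control libraries than in the 4 tunicamycin libraries, which is what the choice by likeness asks of them.

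**Figure D4:**
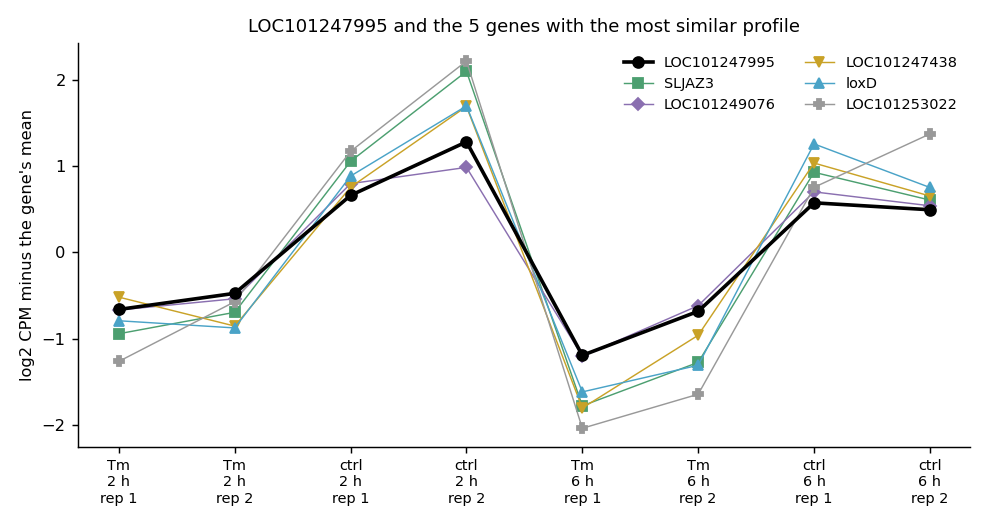
Log2 CPM (prior count 2) minus each gene's own mean, in the 8 libraries by group (Tm tunicamycin, ctrl control) and replicate, for LOC101247995 (thick black line) and the 5 genes of highest Pearson correlation with it; lines join the values of one gene. All 6 genes lie below their mean in the 4 tunicamycin libraries and above it in the 4 control libraries, and control 2 h replicate 2 is the highest library of LOC101247995 (29.4 CPM).

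Other genes of plant cell death were matched by their descriptions in 7 lists. Serpins are protease inhibitors, one of which blocks metacaspase 9 in Arabidopsis, and the TUDOR nuclease is a metacaspase substrate in Norway spruce. Of the 12 genes listed as inhibitors and substrates 11 were tested, and 1 fell at 6 h while 10 did not pass, beside the 0.322% of all transcripts called then. That gene, LOC109118716 (serpin-ZX-like), stood at 1.39 and 1.02 CPM in tunicamycin leaves at 6 h, against 7.19 and 9.61 CPM in control leaves. At 2 h the levels were 2.15 and 2.25 CPM, against 14.9 and 10.7 CPM.

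The log2 fold change of LOC109118716 was -2.77 ± 0.45 at 6 h (adjusted p = 0.0165 in edgeR), -2.53 ± 0.45 at 2 h (adjusted p = 0.0723) and -2.65 ± 0.32 averaged over both times (adjusted p = 0.000925). The averaged call held in all 16 alternatives. With the 2 h libraries kept out of the fit, 0 transcripts were called at 6 h. The call of this gene at 6 h ended there (log2 -2.80 ± 0.46, adjusted p = 0.201 in edgeR). It also ended when 1 library was left out, namely control 2 h replicate 2 (adjusted p = 0.0541 in edgeR), tunicamycin 6 h replicate 1 (0.117) or tunicamycin 6 h replicate 2 (0.0945). The list's median log2 fold change was -0.65 at 2 h and -0.48 at 6 h, each time the value of the serpin LOC112940027. The tested serpins were all below zero, though LOC101266216 was at -0.00051 at 6 h. LOC101266508 passed the filter through its control libraries alone (means of 0.110 and 0.0392 CPM with tunicamycin), so its direction was fixed. The TUDOR and tudor genes lay between -0.24 and 0.27. Phosphoenolpyruvate carboxykinase (LOC543812) was at 1.06 ± 0.53 at 2 h and -0.69 ± 0.53 at 6 h.

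None of the other 6 lists had a member called with tunicamycin in edgeR at 2 h, at 6 h or averaged. Of the papain-type and cathepsin B proteases, some of which digest the contents of dying cells, all 11 genes were tested and none passed (median -0.20 at 2 h and -0.08 at 6 h, with 0 at an unadjusted p under 0.05 at either time). From 2 h to 6 h in tunicamycin leaves 1 of them was called lower, LOC101246709 (low-temperature-induced cysteine proteinase-like, named after its values were seen), beside 0.603% of all transcripts called. It stood at 39.6 ± 1.32 CPM at 6 h, against 212 ± 6.18 CPM at 2 h (log2 -2.42 ± 0.44, adjusted p = 0.0224 in edgeR). In control leaves LOC101246709 was also lower at 6 h, at 64.8 ± 37.4 CPM against 123 ± 45.4 CPM, without being called (log2 -0.93 ± 0.42, adjusted p = 0.968 in edgeR). The difference between the arms, -1.49 ± 0.60 on the log2 scale, was not called. Of 66 subtilisin-like protease genes, the class of the phytaspases, 42 were tested and none passed (median -0.59 at 2 h and -0.04 at 6 h, with 6 and 0 at an unadjusted p under 0.05, where 7.25% and 4.07% of all transcripts were).

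For the LSD1 zinc finger regulators, one of which holds back metacaspase-dependent death in Arabidopsis, 2 of 3 genes were tested and neither passed (median -0.25 at 2 h and 0.00 at 6 h). For the Bax inhibitor genes, membrane proteins of the ER that restrain cell death, 4 of 16 were tested and none passed (0.14 and -0.07). Of the 6 nuclease genes 5 were tested and none passed (0.72 and 0.33), and the match took in a flap endonuclease of DNA replication. It also took in genes described as bifunctional nucleases, which the description alone does not tie to cell death. Both medians are values of such genes. Of the 7 genes matched as vacuolar-processing enzymes, proteases with caspase-like activity, 6 had 0 counts in all libraries and none was tested.

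Markers of other leaf cell types were summed beside these results. The 29 vascular genes, of which 5 had 0 counts, came to 172 to 223 CPM in tunicamycin leaves at 2 h, against 197 to 337 CPM in control leaves, and 119 to 227.1 CPM at 6 h, against 217 to 302 CPM. The 24 epidermis and guard cell genes came to 224 to 326 CPM with tunicamycin at 2 h, against 198 CPM in both control libraries, and 129 to 173 CPM at 6 h, against 121 to 155 CPM. The 22 dividing cell genes came to 696 to 703 CPM with tunicamycin at 2 h, against 620 to 874 CPM, and 526 to 1016 CPM at 6 h, against 333 to 877 CPM. The 26 genes matched as fruit markers were mostly oxidase homologs and expansins, and 21 of them were detected in these leaves. They came to 184 to 268 CPM with tunicamycin at 2 h, against 212 to 213 CPM, and 194 to 249 CPM at 6 h, against 183 to 219 CPM. The 25 mesophyll genes took 3.69% and 4.42% of the scaled counts with tunicamycin at 2 h, against 3.40% and 3.01% in control leaves, and 2.24% and 4.74% at 6 h, against 2.88% and 3.76%. Thus the epidermis and the mesophyll lists were higher in both tunicamycin libraries at 2 h, the other ranges overlapped, and their part in the level of LOC101247995 was not tested.

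**Figure D5:**
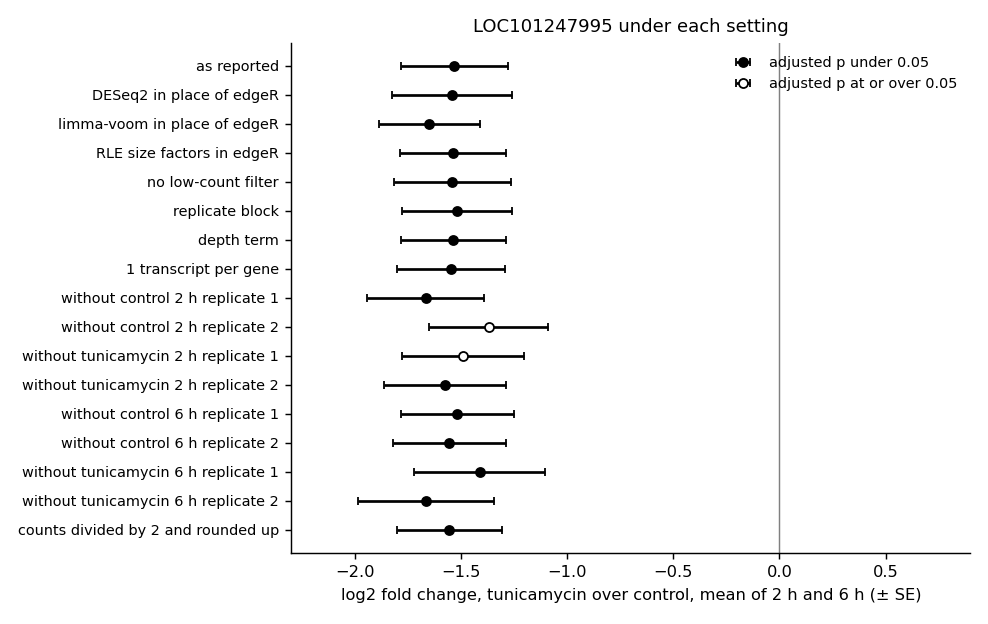
Log2 fold change of LOC101247995, tunicamycin over control, averaged over 2 h and 6 h, as reported and under 16 alternatives; bars are standard errors, filled points have an adjusted p under 0.05 and open points do not. All values lie between -1.67 and -1.37, and the 2 open points leave out control 2 h replicate 2 and tunicamycin 2 h replicate 1.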

How the data were processed

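The deposited table holds raw read counts per RefSeq transcript, whole numbers in 1 column for each of the 8 libraries. The authors also deposited 3 comparison tables, whose fold change and average CPM are on the log2 scale per the file headers, with an F score, a p-value and a false discovery rate. One cell of the fold changes for 2 h held no readable number and was left out. Per the submitters' processing notes, Trimmomatic 0.40 was used. The sources used here name no aligner, counter, build or strand setting.

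Counts were fitted with edgeR 4.0.16 in R 4.3.3: filterByExpr by group (minimum count 10, minimum total count 15), which kept 34483 transcripts, TMM scaling, and 1 mean per group with robust quasi-likelihood on 4 residual degrees of freedom. The spread of each transcript was moderated by that of the others, with a median of 10.6 prior degrees of freedom. The 6 comparisons were two-sided contrasts, and an adjusted p (Benjamini-Hochberg over all transcripts tested) under 0.05 was called. The standard error is the absolute log2 fold change divided by the square root of F. Within-depth values are differences of log2 CPM (prior count 2) between the deeper or the shallower libraries. Nothing beyond the word biological in the titles says that replicates came from separate plants, so p-values measure the spread between these libraries. Replicates of a group differed beyond sampling noise (chi-square per degree of freedom from 12.4 to 152).

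Alternatives were DESeq2 1.42.0, limma-voom (limma 3.58.1), other size factors, no filter, a replicate block, a depth term, 1 transcript per gene, only the libraries compared, each library left out, and, added after the data were seen, halved counts. The procedure was also run on simulated counts, with the fitted dispersions and the same change at 2 h and 6 h. No result of that run is used here. All metacaspase genes were described. Of the 7 other cell death lists, genes called with tunicamycin at 2 h or 6 h were named. Marker lists were leaf mesophyll, vascular, epidermis and guard cells, dividing cells and fruit. Members and lists were chosen with earlier results of these data known. No protein or promoter sequences were used here.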

Additional observations from a re-analysis of the deposited data

How the results depend on the processing

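With 2 libraries a group, the count of called metacaspase genes moved by at most 1 in any comparison. At 2 h the count of 0 became 1 in DESeq2, 1 with no low-count filter, and 0 to 1 with a library left out (1 without control 6 h replicate 1), in each case LOC101247995. At 6 h the count of 0 became 1 in DESeq2 and 1 with no filter, again LOC101247995. For the averaged effect the count of 1 became 2 in DESeq2 and 2 with no filter (LOC101247995 and MCA2), and 0 to 1 with a library left out. For 6 h against 2 h in either arm and for the difference between times it stayed at 0 in all alternatives run. With the replicate block the averaged log2 fold change of LOC101247995 was -1.52 (adjusted p = 0.0112 in edgeR) and no call of a metacaspase gene changed. Same-numbered libraries did not deviate together (correlations from -0.177 to 0.167), so the numbers are not taken as pairs. With crossed numbers, which is the same fit as the depth term, 53 transcripts were called at 2 h and 161 at 6 h, against 3 and 72 with the block.

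Calls over all transcripts ranged from 0 to 679 around 16 at 2 h, from 0 to 597 around 111 at 6 h, from 63 to 1175 around 400 for the averaged effect, from 65 to 1229 around 208 for time in tunicamycin leaves, from 23 to 371 around 93 for time in control leaves, and from 0 to 93 around 0 for the difference, each highest with no filter.

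Log2 fold changes that were not called changed sign in some alternatives, and the cause was not tested. For 6 h against 2 h in control leaves, MCA1 (-0.02) became 0.056 with the replicate block and ranged from -0.38 to 0.47 with a library left out. In the same comparison LOC101249016 (0.09) became -0.035 in limma-voom and ranged from -0.22 to 0.48 with a library left out, and LOC101268763 (-0.50) became 0.16 with the depth term. For the tunicamycin effect at 6 h minus that at 2 h, with a library left out, the ranges were -0.044 to 0.81 for MCA1, -0.20 to 0.39 for LOC101247995, -0.060 to 0.64 for LOC101249016, -1.63 to 0.017 for LOC101247964, -0.22 to 0.37 for LOC101260875 and -0.41 to 2.08 for MCA2. For tunicamycin against control the ranges were -0.48 to 0.0084 for LOC101249016 at 6 h and -1.04 to 0.60 for LOC101247964 at 2 h. LOC101268763 gave no value in alternatives where it failed the filter or both groups were at 0.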
